A study of Homo sapiens with 6 samples.

Results

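The genes described here encode the semaphorins, plexins and neuropilins, the Eph receptors and ephrins, and a smaller group of Slit, Robo and netrin pathway proteins. They were taken by gene symbol: symbols starting with SEMA or PLXN, the EPHA, EPHB, EFNA and EFNB genes, and NRP1, NRP2, ROBO1, ROBO2, SLIT1, SLIT2, SLIT3, NTN1, NTN4, UNC5B, DCC and NEO1. Among the 54675 probe sets of the array, 164 carried 1 such symbol, and they stood for 65 genes, 62 of them protein coding. The other 3 were the antisense RNA genes EPHA1-AS1, EPHA2-AS1 and EPHA5-AS1, which match by their prefix. Of the 65 genes, 48 passed the filter on low signal and were tested among 13949 genes.

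RNA was measured on Affymetrix HG-U133 Plus 2 arrays in Hep3B, an established human hepatocellular carcinoma line. One group of 3 arrays came from cells that stably express a decoy RNA against miR-17 (miR-17 TuD) and the other group of 3 from cells with a control decoy (NC TuD). A TuD, or tough decoy, is an RNA that holds a microRNA away from its target messages. Both lines were made with viral particles and puromycin, and the resistant colonies of each were pooled, so a group rests on 1 pooled line. The descriptions also carry a second code, PLUSDOX on the miR-17 TuD arrays and NODOX on the NC TuD arrays. The labels leave that code unexplained, and it cannot be told apart from the decoy. Nothing in the labels tells whether replicates came from separate cultures, so the p-values reflect only how much these samples varied, which may be technical.

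Guidance proteins were first studied in growing axons and are also made by epithelial, endothelial and tumour cells. Semaphorins are secreted or membrane-bound ligands, plexins are their receptors, and neuropilins are co-receptors for the secreted class 3 semaphorins. Ephrins are membrane-bound ligands of the Eph receptor tyrosine kinases, and because both sides sit in membranes they signal between touching cells. Slits act through Robo receptors and netrins through DCC, neogenin and UNC5 receptors. All of these systems act on the actin cytoskeleton and on adhesion, in part through small GTPases.

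MicroRNAs of the miR-17 family repress messages that pair with their seed, bases 2 to 8. The mature sequences are shown because the decoy is directed at miR-17 and a shared seed defines the family. They are from RefSeq (GRCh38.p14), 5′ to 3′, with the seed in capitals:
hsa-miR-17-5p (chr13:91350618-91350640, plus strand): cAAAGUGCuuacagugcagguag
hsa-miR-20a-5p (chr13:91351072-91351094, plus strand): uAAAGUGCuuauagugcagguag
hsa-miR-20b-5p (chrX:134169850-134169872, minus strand): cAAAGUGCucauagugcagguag
hsa-miR-93-5p (chr7:100093815-100093837, minus strand): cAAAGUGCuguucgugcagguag
hsa-miR-106a-5p (chrX:134170244-134170266, minus strand): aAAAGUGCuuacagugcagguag
hsa-miR-106b-5p (chr7:100094043-100094063, minus strand): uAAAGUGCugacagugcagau
All 6 had the same seed, AAAGUGC, and differed outside it. Matches of guidance gene messages to this seed were not analysed here.

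Of the 48 guidance genes tested, 5 were higher in the miR-17 TuD arrays (SEMA7A, SEMA3G, SEMA3A, SEMA4B and NTN4), 2 were lower (PLXNC1 and SLIT2) and 41 did not pass the threshold, an adjusted p of 0.05 in limma over all genes. The share called was 14.6%, against a background of 11.4% of all genes tested. The share higher was 10.4% against 6.78%, and the share lower 4.17% against 4.6%, so the guidance genes as a whole were called about as often as other genes. Without the adjustment, p in limma was under 0.05 for 9 genes with a positive and 7 with a negative difference. The share of all genes under that unadjusted threshold was not counted. Such counts, also those by family below, therefore have no background. All 7 called genes were among the 29 with a mean log2 level above 7, a share of 24.1%, where the background was 15.4%.

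All differences are on the log2 scale, miR-17 TuD minus NC TuD. They ran from -0.59 for SLIT2 to 0.90 for SEMA7A, with a median of 0.0022, and the median over all genes was 0.0006. The median size of the difference was 0.14 for the guidance genes and 0.079 for all genes, and 20 of the 48 differed by less than 0.1. In 18 genes (37.5%) the values of the groups did not overlap, 11 with the miR-17 TuD arrays above and 7 with them below, and the background for such separation was 33%. By family, the genes called higher were 4 of 15 semaphorins tested and 1 of 4 netrins and netrin receptors, and those called lower were 1 of 11 plexins and neuropilins and 1 of 2 Slit and Robo genes.

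**Figure D1:**
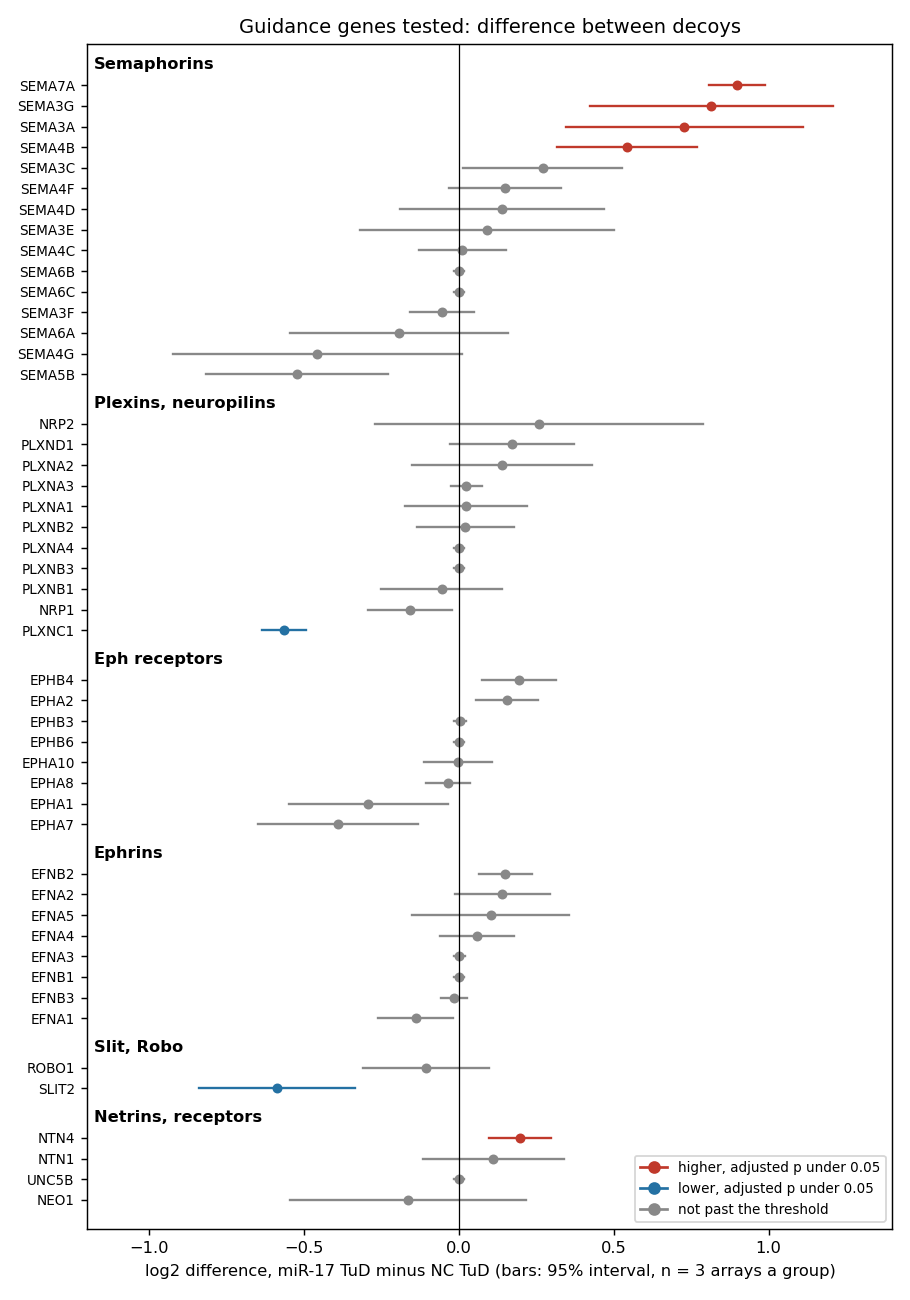
Log2 difference (miR-17 TuD minus NC TuD, x axis) of the 48 guidance genes tested, by family, with 95% intervals of the limma fit (n = 3 arrays a group); red and blue mark adjusted p under 0.05. The 5 genes in red are 4 semaphorins and NTN4, the 2 in blue are PLXNC1 and SLIT2, and no Eph receptor or ephrin is coloured.

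SEMA7A, a semaphorin held to the cell surface by a lipid anchor, rose 1.86-fold, and PLXNC1, the plexin that binds it, was 1.48-fold lower. SEMA7A stood at 9.08, 9.13 and 9.21 in miR-17 TuD replicates 1 to 3, and at 8.24 on each of the 3 NC TuD arrays. PLXNC1 stood at 10.28, 10.23 and 10.19 in the miR-17 TuD arrays and at 10.78, 10.81 and 10.82 in the NC TuD arrays. Ligand and receptor thus lay on opposite sides, and in neither did the groups overlap. The difference of SEMA7A was 0.90 (SE 0.035, 95% interval 0.81 to 0.99) and that of PLXNC1 -0.57 (SE 0.027, -0.64 to -0.49), each with an adjusted p of 0.00338 in limma. Both calls held whichever of the 6 arrays was left out, with adjusted p of 0.00426 to 0.0279 for SEMA7A and 0.0122 to 0.0287 for PLXNC1.

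A second probe set of SEMA7A lay at 2.12, the lowest value on the arrays, so its rise rests on 1 probe set. Its NC TuD values agreed to the second decimal. Such equal values were also seen in genes without a difference, such as EFNB1, and whether 8.24 is the least value this probe set can take was not tested. PLXNC1 was lower in each of its 3 tested probe sets, by -0.57, -0.82 and -0.56, and in all 3 the groups did not overlap, although 1 passed the threshold over all probe sets. ITGB1, the integrin beta subunit that also serves as a receptor for SEMA7A, differed by 0.01 (SE 0.044, 95% interval -0.10 to 0.13).

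The promoters of this ligand and receptor are shown because theirs were the differences called in every fit. Each is the RefSeq sequence (GRCh38.p14) of 300 bases around the most upstream of 2 annotated starts, 5′ to 3′ on the gene's strand. Capitals mark the GC box, GGGCGG or its reverse complement CCGCCC, with overlapping matches counted each:
SEMA7A (chr15:74433909-74434208, minus strand): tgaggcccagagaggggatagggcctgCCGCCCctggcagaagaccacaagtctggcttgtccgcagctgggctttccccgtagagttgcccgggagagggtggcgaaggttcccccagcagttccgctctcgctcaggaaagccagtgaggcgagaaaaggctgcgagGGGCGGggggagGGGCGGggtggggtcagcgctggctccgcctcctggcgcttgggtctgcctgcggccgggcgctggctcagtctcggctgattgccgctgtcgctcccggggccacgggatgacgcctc
PLXNC1 (chr12:94148327-94148626, plus strand): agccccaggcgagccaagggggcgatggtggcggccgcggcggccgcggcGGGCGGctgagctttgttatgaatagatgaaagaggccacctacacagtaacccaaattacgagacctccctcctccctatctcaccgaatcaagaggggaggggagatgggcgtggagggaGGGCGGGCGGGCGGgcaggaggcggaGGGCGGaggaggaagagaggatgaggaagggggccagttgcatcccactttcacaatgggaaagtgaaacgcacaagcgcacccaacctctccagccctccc
SEMA7A has 3 GC boxes and 23 CpG dinucleotides in this window, and PLXNC1 has 5 and 20, where the median over 35116 promoters of that length was 14 CpG. A GC box was found in 45% of those promoters and in 43 of the 57 guidance genes with a sequence (75.4%). Guidance genes were counted with 1 promoter each, at the most upstream start. The 35116 include several starts of some genes, so these shares differ in unit. Neither window holds the E2F letters TTTCGCGC or TTTGGCGC on either strand, which are in 1.15% of all promoters and in none of the 57, nor TATAAA, which is in 11.5% of all and 1 of the 57. The arrays do not bear on the use of these letters.

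The other 3 semaphorins that rose were SEMA3G, SEMA3A and SEMA4B. SEMA3A and SEMA3G are secreted class 3 ligands, which bind neuropilins, and SEMA4B is a transmembrane class 4 semaphorin. SEMA3G stood at 9.66, 10.06 and 10.15 in the miR-17 TuD arrays and at 9.20, 9.21 and 9.01 in the NC TuD arrays. SEMA3A stood at 7.89, 7.98 and 7.56 against 7.12, 7.23 and 6.90, and SEMA4B at 10.93, 11.12 and 11.23 against 10.49, 10.59 and 10.57. All 3 miR-17 TuD arrays lay above all 3 NC TuD arrays for each gene. SEMA3G rose 1.76-fold (difference 0.82, SE 0.15, adjusted p = 0.0386), SEMA3A 1.66-fold (0.73, SE 0.15, adjusted p = 0.0456) and SEMA4B 1.46-fold (0.54, SE 0.086, adjusted p = 0.0281).

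Their calls depended on single arrays. SEMA3G lost its call in every fit with 1 array left out except that without miR-17 TuD replicate 1, with adjusted p of up to 0.119, and SEMA3A in every such fit except that without miR-17 TuD replicate 3, with up to 0.135. SEMA4B lost it without miR-17 TuD replicate 2 (adjusted p = 0.0823) and without NC TuD replicate 1, 2 or 3 (0.103, 0.0973 and 0.0928). The direction held in every fit with 1 array left out, with differences of 0.72 to 0.96 for SEMA3G, 0.64 to 0.85 for SEMA3A and 0.47 to 0.63 for SEMA4B. A second SEMA3A probe set differed by 0.53 with overlapping groups, and SEMA3G and SEMA4B have 1 probe set each, that of SEMA4B of the suffix s_at, which can bind related transcripts.

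**Figure D2:**
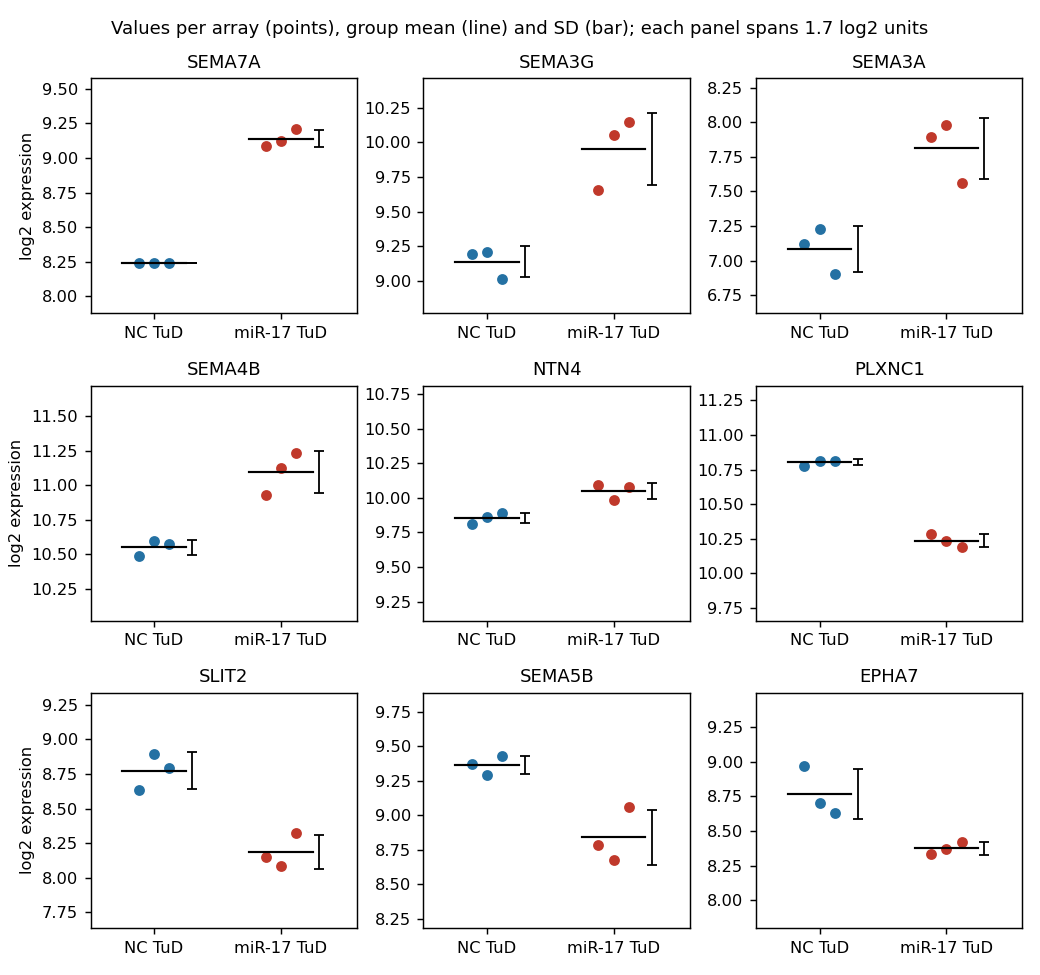
Log2 expression on each array (points) with group mean (line) and SD (bar) for the 7 called guidance genes and for SEMA5B and EPHA7, 3 arrays a group, every panel spanning the same range. The points of the 2 groups do not overlap in any of the 9 panels, and the spread within groups is narrow for PLXNC1 and wide for SEMA3A and SEMA3G.

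SEMA5B, a transmembrane semaphorin with thrombospondin repeats, had the lowest difference of its family. It stood at 8.78, 8.67 and 9.06 in the miR-17 TuD arrays and at 9.37, 9.29 and 9.43 in the NC TuD arrays, a difference of -0.52 (SE 0.11) that did not pass at an adjusted p of 0.0533. The groups did not overlap, and leaving out miR-17 TuD replicate 3 brought the adjusted p to 0.0241. SEMA3C, a secreted class 3 semaphorin, had a difference of 0.27 (adjusted p = 0.163), again without overlap, and SEMA4G one of -0.46 (adjusted p = 0.186) with overlap. Among the rest, SEMA3E, SEMA3F, SEMA4C, SEMA4D, SEMA4F and SEMA6A differed by -0.19 to 0.15 and none passed. SEMA4C, which had the strongest signal of the family, stood at 11.54, 11.66 and 11.73 in the miR-17 TuD arrays and at 11.61, 11.63 and 11.67 in the NC TuD arrays, with overlap. SEMA6B and SEMA6C had the same value on all 6 arrays to within 0.001, and SEMA3B, SEMA3D, SEMA4A, SEMA5A and SEMA6D were at or near the lowest value and were not tested.

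Apart from PLXNC1, none of the plexins and neuropilins passed the test. NRP1, the co-receptor of SEMA3A, stood at 9.96, 9.90 and 9.85 in the miR-17 TuD arrays and at 10.02, 10.15 and 10.01 in the NC TuD arrays. That difference of -0.16 (SE 0.052) had an unadjusted p under 0.05 and an adjusted p of 0.134, and the other 3 probe sets of the gene overlapped between groups. NRP2, the neuropilin that SEMA3G binds, differed by 0.26 (SE 0.20, 95% interval -0.27 to 0.79), and its probe set ran from 3.04 to 3.79, so a change of moderate size could not be seen there. PLXND1, a receptor for SEMA3E, had a difference of 0.17 (adjusted p = 0.234). Its 3 miR-17 TuD values of 10.44, 10.48 and 10.69 lay above the NC TuD values of 10.30, 10.41 and 10.39. A second PLXND1 probe set, of weaker signal, differed by 0.13 with overlap. PLXNA1 (0.02), PLXNA2 (0.14), PLXNA3 (0.02), PLXNB1 (-0.06) and PLXNB2 (0.02) had adjusted p of 0.482 to 0.898, and PLXNA4 and PLXNB3 were the same on all 6 arrays to within 0.001.

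EPHA4, a receptor for ephrins of both classes and a reported target of the miR-17 family, could not be assessed. All 5 of its probe sets lay at 2.12 on all 6 arrays, the lowest value that any probe set takes. A difference between the lines was thus not measurable for it. EPHA3, EPHA5, EPHA6 and EPHB1 were at or near that value and were not tested either, and neither were the 3 antisense RNA genes.

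None of the 8 Eph receptors tested passed in limma, where 2 had an unadjusted p under 0.05 with a positive difference and 2 with a negative one. EPHA7, a class A receptor, stood at 8.33, 8.37 and 8.42 in the miR-17 TuD arrays and at 8.97, 8.70 and 8.63 in the NC TuD arrays. The difference was -0.39 (SE 0.099, adjusted p = 0.0771). All 4 probe sets of EPHA7 had a negative difference, from -0.54 to -0.33, and in each of the 4 the groups did not overlap. EPHA1 also had a negative difference, -0.29 (adjusted p = 0.142), with values of 8.29, 8.13 and 8.49 against 8.58, 8.62 and 8.59. A second EPHA1 probe set, of weaker signal, differed by -0.05 with overlap.

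EPHB4 and EPHA2 had positive differences. EPHB4, the receptor for ephrin-B2, stood at 10.57, 10.59 and 10.70 against 10.48, 10.40 and 10.40, a difference of 0.19 (SE 0.045, adjusted p = 0.0655). EPHA2, a receptor for ephrin-A1 that epithelial tumours often express, stood at 11.08, 10.98 and 11.11 against 10.91, 10.89 and 10.90, a difference of 0.16 (SE 0.038, adjusted p = 0.0724). The groups did not overlap in either of these probe sets. A second EPHB4 probe set, of weaker signal, differed by 0.01 with overlap. EPHB4 passed under 4 alternatives (the 60th percentile filter, quantile normalization, median centring, and genes identical within a group left out). EPHA2 passed with median centring and without miR-17 TuD replicate 2, and EPHA1 without miR-17 TuD replicate 3. EPHA8, EPHA10, EPHB3 and EPHB6 had means under 5 and differences within 0.04 of 0.

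**Figure D3:**
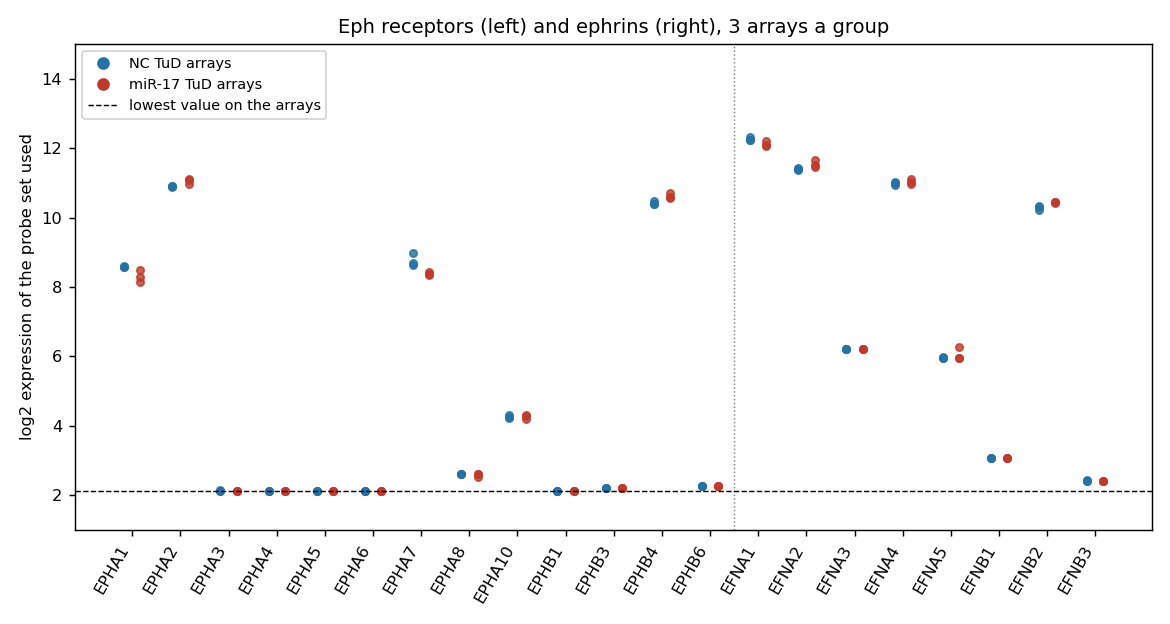
Log2 expression of the probe set used for each protein-coding Eph receptor and ephrin on the 3 NC TuD (blue) and 3 miR-17 TuD (red) arrays; the dashed line is the lowest value on the arrays, 2.12. EPHA4 lies on that line on all 6 arrays, and points of both colours stand close together for every gene shown; heights of different genes are not comparable, since each has its own probe set.

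All 8 ephrins were tested and none passed in limma, with 1 unadjusted p under 0.05 in each direction. EFNB2, a transmembrane ephrin and a ligand of both EPHB4 and EPHA4, stood at 10.45, 10.42 and 10.45 in the miR-17 TuD arrays and at 10.30, 10.34 and 10.23 in the NC TuD arrays, a difference of 0.15 (SE 0.032, adjusted p = 0.054). Its groups did not overlap in that probe set, but they did in a second EFNB2 probe set, which differed by 0.12. EFNA1, the main ligand of EPHA2, stood at 12.10, 12.07 and 12.21 against 12.25, 12.24 and 12.31, a difference of -0.14 (SE 0.046, adjusted p = 0.138), also without overlap. EFNA2 stood at 11.45, 11.52 and 11.65 against 11.44, 11.39 and 11.36, a difference of 0.14 (adjusted p = 0.211).

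The other ligands of EPHA4 differed less in the probe sets used. EFNA4 stood at 10.97, 11.03 and 11.12 against 11.02, 10.93 and 10.99, a difference of 0.06 with overlap (95% interval -0.06 to 0.18). EFNA5 was at 5.96 or 5.97 on 5 arrays and at 6.28 on miR-17 TuD replicate 3, and its difference of 0.10 became -0.0032 without that array. Of its weaker probe sets, 1 differed by 0.23 with overlap and 1 by 0.07 without overlap, and neither was called. EFNA3 differed by 0.0014 and EFNB3 by -0.02, the latter turning to 0.0066 when each array was centred on its median. The remaining ephrin, EFNB1, which was not listed as an EPHA4 ligand, was the same on all 6 arrays to within 0.001.

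SLIT2, a secreted ligand of the Robo receptors, was 1.50-fold lower in the miR-17 TuD arrays. It stood at 8.15, 8.09 and 8.32 there and at 8.63, 8.90 and 8.79 in the NC TuD arrays, a difference of -0.59 (SE 0.097, 95% interval -0.84 to -0.33, adjusted p = 0.0302 in limma). Each of its 3 probe sets was lower, by -0.59, -0.50 and -0.34, with no overlap, and 2 of the 3 passed the threshold over all probe sets. ROBO1, its receptor, stood at 12.48, 12.72 and 12.58 against 12.67, 12.79 and 12.64, with overlap, and did not pass (difference -0.11, adjusted p = 0.443). ROBO2, SLIT1 and SLIT3 were at or near the lowest value and were not tested. The SLIT2 call held without miR-17 TuD replicate 3 (adjusted p = 0.0409) and was lost without any other single array, with adjusted p of 0.06 to 0.103, while the difference stayed between -0.66 and -0.53.

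NTN4, a laminin-related netrin of basement membranes, rose 1.15-fold, the smallest change among the called genes. It stood at 10.09, 9.98 and 10.08 in the miR-17 TuD arrays and at 9.81, 9.86 and 9.89 in the NC TuD arrays, without overlap (difference 0.20, SE 0.038, adjusted p = 0.0435). That call held without miR-17 TuD replicate 2 and was lost without any other single array (adjusted p of up to 0.141). NTN1, the classical netrin, differed by 0.11 and NEO1, the netrin and RGM receptor neogenin, by -0.16, with adjusted p of 0.475 and 0.533 and overlapping groups. The probe set used for UNC5B was the same on all 6 arrays to within 0.001. A second UNC5B probe set, of weaker signal, differed by -0.06 with overlap. DCC, the best known netrin receptor, was not tested, with its probe sets at or near the lowest value.

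Of the 164 probe sets, 60 lay at the lowest value on all 6 arrays and 90 were tested. Of these 90, 2 passed as higher (SEMA7A and SEMA4B) and 3 as lower (PLXNC1 and 2 of SLIT2), a share of 5.56% against a background of 5.83% of all probe sets, 3.35% higher and 2.48% lower. With each array centred on its median, the split was 8 higher and 6 lower. In that fit 2930 of all 32768 probe sets passed, against 1910 as reported. Where a gene had 2 or more tested probe sets, 16 of 25 genes had differences of 1 sign in all of them. Among the 16 were PLXNC1, SLIT2, EPHA7, SEMA3A and EFNB2, but also genes with hardly any difference, such as SEMA4C (0.0091 and 0.0108). No such share over all genes is given, so this count has no background. Probe sets of 1 gene could also differ in size: in SEMA6A, named after its values were seen, 1 probe set differed by -0.58 without overlap and another, the probe set used, by -0.19 with overlap.

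**Figure D4:**
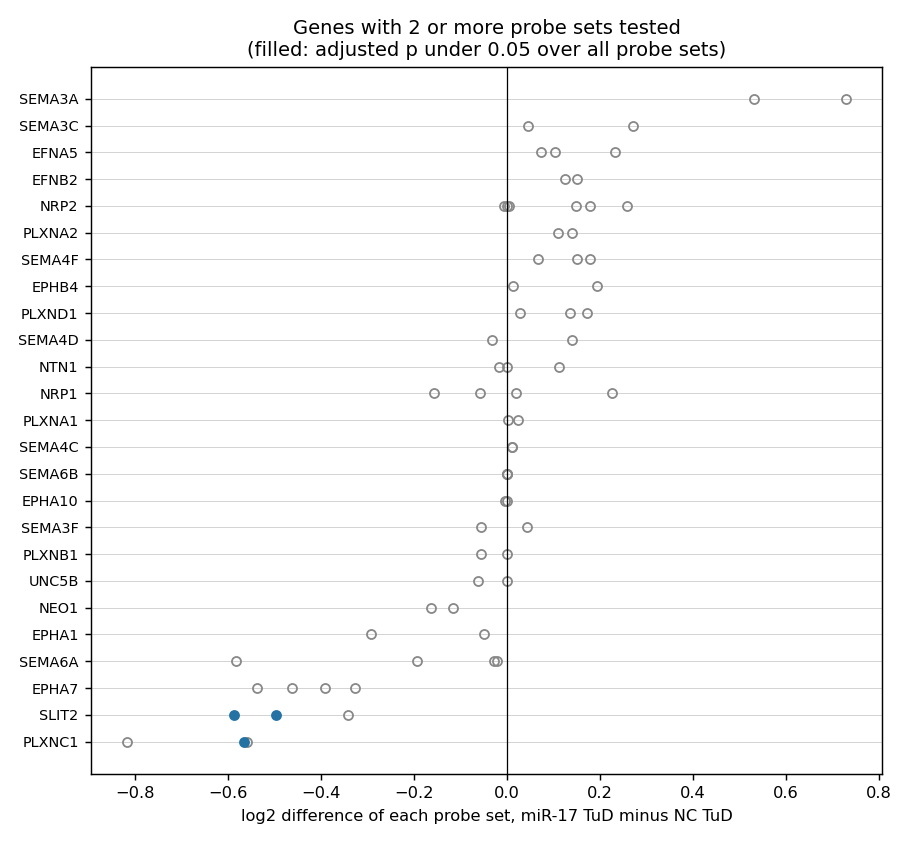
Log2 difference (x axis) of each tested probe set for the 25 guidance genes with 2 or more tested, filled where the adjusted p over all probe sets was under 0.05. The 3 probe sets of SLIT2, the 3 of PLXNC1 and the 4 of EPHA7 all lie to the left of 0, and both probe sets of SEMA3A lie to the right.

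Downstream of these receptors, 102 of 126 listed partner and signalling genes were tested, 9 were higher and 7 lower, a share of 15.7% against 11.4% of all genes tested (6.78% higher and 4.6% lower), so these counts too lie near the background. In the semaphorin signalling list, 4 of 25 rose and 1 fell. LIMK1, the kinase that inactivates cofilin, rose by 0.75 (adjusted p = 0.0451), MICAL2, an actin-oxidising enzyme, by 0.39 (adjusted p = 0.0108) and MRAS, a Ras-related GTPase, by 0.23, while GSK3B, a kinase that acts on collapsin response mediator proteins, fell by 0.29. With all probe sets of a gene averaged, the values were 0.48 for LIMK1 (adjusted p = 0.0675), 0.23 for MICAL2 and -0.08 for GSK3B (adjusted p = 0.0813).

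In the Eph and ephrin signalling list, 2 of 27 rose and 3 fell. PIK3R1, the regulatory subunit of PI3-kinase, stood at 8.95, 8.84 and 8.84 in the miR-17 TuD arrays and at 9.42, 9.48 and 9.39 in the NC TuD arrays, a difference of -0.55 (SE 0.041, adjusted p = 0.00736) that was called in every fit. CHN1, the Rac inhibitor chimaerin that acts below EphA4, rose by 0.45, ITSN1, an exchange factor for Cdc42, fell by 0.32 and SPRY2, an inhibitor of receptor tyrosine kinase signalling, rose by 0.27. Of the receptor partners, 1 of 11 rose (MET, the hepatocyte growth factor receptor, which associates with class B plexins, by 0.25) and 1 fell (the integrin subunit ITGA6, by 0.16).

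DAPK1, a kinase linked to UNC5 receptors, fell by 0.42 as 1 of 15 Slit and netrin signalling genes. FLRT2, a membrane ligand of UNC5 receptors, fell by 0.22 as 1 of 11 further guidance family genes. With all probe sets of a gene averaged, FLRT2 (-0.17, adjusted p = 0.137 in limma) and MET (0.20, adjusted p = 0.059) lost their calls. PIK3R1, CHN1, ITSN1, SPRY2, ITGA6 and DAPK1 kept theirs in that fit. Of the 12 signalling genes named here, PIK3R1 kept its call in all 6 fits that left out 1 array, MICAL2 in 4 and ITSN1 in 3. MRAS, CHN1, SPRY2, DAPK1 and ITGA6 kept theirs in 2, LIMK1, GSK3B and FLRT2 in 1, and MET in none, so most of these calls rest on all 6 arrays.

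Across probe sets, r was 0.9994 to 0.9997 between arrays within a group and 0.9988 to 0.9991 between groups. Hepatocyte markers were strongly detected, and 6 of the 8 measured (ALB, AFP, APOA1, APOB, TTR and FGB) were lower in the miR-17 TuD arrays. SERPINA1 and KRT18 had positive differences of 0.13 and 0.08 without overlap and were not called (adjusted p of 0.0912 and 0.051 in limma). The summed log2 level of all 8 was 97.77 to 98.81 in the miR-17 TuD arrays against 103.18 to 103.51. The endothelial markers VWF, CDH5 and KDR, the leukocyte markers PTPRC and CD3E, the fibroblast markers COL3A1 and DCN, and the neuronal marker RBFOX3 were at or near the lowest value. Other genes of these lists were detected: 2 of 6 fibroblast and 3 of 6 neuronal markers had a mean within 1 of the lowest value, whereas the mean in the miR-17 TuD arrays was 12.79 for COL1A1, 9.35 for COL1A2, 11.59 for SNAP25 and 9.99 for MAP2. LYZ was the 1 marker of another cell type called, as higher. Summed levels were 33 to 34.02 against 32.87 to 33 for 6 fibroblast, 12.58 to 13.5 against 12.47 to 12.58 for 5 endothelial, 14.39 to 14.48 against 13.72 to 13.83 for 4 leukocyte and 32.37 to 32.97 against 32.38 to 32.53 for 6 neuronal markers. The lower hepatocyte markers and the guidance gene differences lie between the same groups of arrays, and whether they are related was not tested. In bulk RNA, fewer cells of a type and less RNA per cell cannot be told apart.

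**Figure D5:**
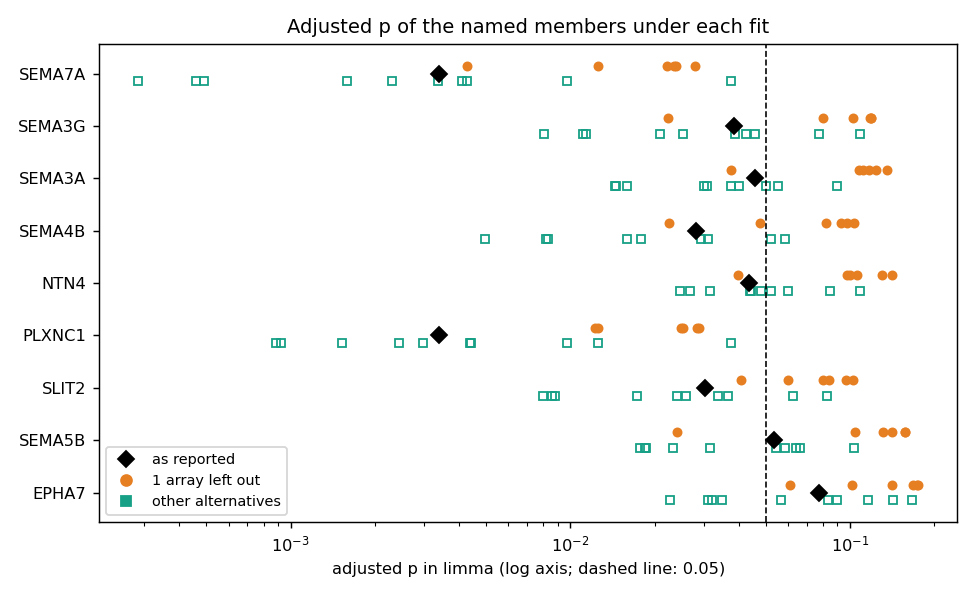
Adjusted p in limma (x axis, log scale, dashed line at 0.05) of the 7 called guidance genes and of SEMA5B and EPHA7 as reported (black), with 1 array left out (orange) and under the other alternatives (green). All points of SEMA7A and PLXNC1 lie left of the line, and those of the other 7 genes lie on both sides of it.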

How the data were processed

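Each array has a deposited log2 value for every probe set. RMA and GCRMA are listed in the submitters' processing notes, without version or role, and no genome build is named there. Those log2 values run from 2.12 to 16.32. On each array 34.9% to 35.4% of probe sets share the lowest value, so changes of weakly expressed genes are hidden. The files used hold no counts or detection calls, and the number of arrays limits the precision.

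Values were kept as deposited. Genes were named from GEO's platform annotation, with symbols updated through RefSeq (GRCh38.p14), and each was represented by its probe set of highest mean among those with 1 symbol. Probe sets with a mean at or under the 40th percentile (2.14) were left out. The comparison used lmFit and eBayes of limma 3.58.1 (R 4.3.3, 2-sided, Benjamini-Hochberg over all genes or all probe sets, threshold 0.05), and the pipeline was tested on simulated data. Probe sets alike on all 6 arrays agreed within 0.001.

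Named were all called genes, EPHA4 and its ligands, the genes with the highest and lowest signal of a family, genes without overlap that differed by at least 0.3, and up to 4 called genes of each signalling list. SEMA3C, SEMA4G, NRP1, NRP2, PLXND1, EPHA1, EPHA2, EPHB4, ITGB1, NTN1 and the further members listed with their differences were named after their values were seen. The result of 1 signalling list, which is part of the total over the lists, is not reported here. The members and lists were chosen with earlier results of these data known. Alternatives were another filter, other probe set rules, other scalings, array weights, another variance model, the replicate number as a block and leaving out each array.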

Additional observations from a re-analysis of the deposited data

How the results depend on the processing

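With the replicate block in the fit, 2 guidance genes were higher and 1 lower, against 5 and 2 as reported. No guidance probe set passed in either direction (0 and 0, against 2 and 3 in limma), and no probe set of the array did. Of the signalling genes, 5 were higher, against 9. Among all 13949 genes tested, 822 passed with the block, against 1588 as reported. Deviations of same-numbered arrays correlated at 0.032, 0.13 and 0.101, so the numbers were not taken to pair the samples. With no filter, 1 of 65 guidance genes was higher and 1 lower, and 1 of 164 probe sets was higher and 1 lower. There, 5 of 119 signalling genes were higher and 4 lower, against 9 and 7 of 102. Over the whole array, 789 of 19775 genes and 554 of 54613 probe sets passed without the filter. With the 60th percentile filter, 34 guidance genes were tested, 7 were higher and 4 lower. Of the 50 guidance probe sets tested there, 6 were higher and 7 lower. Of 87 signalling genes, 10 were higher and 11 lower. That filter called 2104 of 10773 genes and 3271 of 21845 probe sets over the whole array. Without s_at and x_at probe sets, 2 of 39 guidance genes were higher and 2 lower. Of 62 guidance probe sets, 1 each was higher and lower. Over the whole array, 927 of 11129 genes and 836 of 20840 probe sets passed in that setting. Quantile normalization gave 4 probe sets higher and 5 lower, where 2440 of all 32768 tested passed. Median centring gave 8 guidance genes higher and 4 lower, and 8 probe sets higher and 6 lower. Over the whole array it called 2143 of 13949 genes and 2930 of 32768 probe sets, against 1588 and 1910 as reported. Leaving out genes identical within a group, chosen after seeing the data, gave 4 guidance genes lower. It also gave 5 probe sets higher and 8 lower, and 11 signalling genes lower. Fewer members were tested there, with 13 semaphorins and 6 Eph receptors left. Calls over the whole array in that fit are not given here, so these counts have no background. The causes were not tested.

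Leaving out 1 array gave 1 to 3 guidance genes higher and 1 to 4 lower. The 4 lower (EPHA1, SEMA5B, PLXNC1 and SLIT2) came from the fit without miR-17 TuD replicate 3. Of the probe sets, 1 to 3 were higher and 1 to 3 lower, and of the signalling genes 1 to 7 and 1 to 7. Calls over the whole array are not given for each of these fits, so the ranges have no background. The fewest calls over all genes came without NC TuD replicate 1 or 2 (374 each, against 1588). SEMA7A and PLXNC1 passed in every one of the 16 alternatives. The fit without genes identical within a group kept SEMA7A narrowly. Its NC TuD values of 8.2408, 8.2429 and 8.2429 lie just past the tolerance of 0.001. Beside the single arrays, SEMA3G, SLIT2, SEMA4B and NTN4 lost their calls with the block (adjusted p of 0.109, 0.0829, 0.0523 and 0.108), all 5 other called genes did with no filter, SEMA3A did with trend and robust variance (0.0501), SEMA3A and NTN4 did without s_at and x_at probe sets (0.0552 and 0.0522), and NTN4 did with array weights (0.0602). EFNB2, SEMA5B and EPHA7 passed under 3, 6 and 4 alternatives. Genes at the lowest value allow no statement on change.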

Other observations

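One further probe set carries the symbols of both SEMA3B and the microRNA gene MIR6872 and was therefore named for neither. It stood at 5.18 on 5 arrays and at 5.19 on NC TuD replicate 3.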
